A study of Mus musculus with 2 samples.

Results

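Cells with transcripts of red pulp macrophages were picked out of 2 mouse spleen libraries, and those that also carried large amounts of haemoglobin RNA were compared with those that did not. The bleeding cells fitted the name red pulp macrophage by their markers, whereas most of the larger PHZ cells lacked the markers Slc40a1 and Vcam1. A barcode counted as a cell with 1000 or more UMIs (unique molecular identifiers, each counting 1 RNA molecule), 300 or more genes and at most 10% mitochondrial UMIs. It counted as a macrophage with 10 or more UMIs summed over C1qa, C1qb, C1qc, Vcam1, Mrc1, Mertk and Axl and at least 3 of these 7 genes detected. The cells were therefore chosen by measured values. Of 16152 cells, 275 met this rule: 18 of the 6445 PHZ cells and 257 of the 9707 bleeding cells. Cells with 20% or more of their UMIs from haemoglobin genes were called haemoglobin-rich and the others haemoglobin-poor. The PHZ cells held 1 haemoglobin-rich and 17 haemoglobin-poor macrophages, the bleeding cells 170 haemoglobin-rich and 87 haemoglobin-poor ones. The 7 genes and the haemoglobin genes chose the cells, so their values are given as a description.

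The 2 libraries came from spleens of C57BL/6 mice with chronic anaemia, brought on in the chronic PHZ group by injections of PHZ (the usual short form of phenylhydrazine, which damages red cells) and in the chronic bleeding group by blood loss, in both every 3 days for 1 month. Live cells were captured in droplets and their transcripts were counted at the 3′ end. The number of mice behind each library, their age and sex, and any removal of red cells are not given in the sources used here. Anaemia was shared by both groups, untreated mice were not analysed here, and each treatment had 1 library. Treatment and library therefore cannot be told apart, no test was made, and every interval below is an exact 95% interval that covers counting error only.

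Red pulp macrophages line the blood spaces of the spleen and engulf aged or damaged red cells. They split haem with haem oxygenase, store the freed iron in ferritin and return it to plasma through ferroportin, and the transcription factor encoded by Spic, induced by haem, is needed for their development. In anaemia the mouse spleen also makes red cells, and macrophages of the erythroblast islands hold dividing erythroblasts, supply them with growth signals and engulf the nuclei they expel.

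The PHZ matrix held 128130213 UMIs and the bleeding matrix 145260780. Haemoglobin genes made up 40.5% of UMIs in the background barcodes (10 to 100 UMIs each) of the PHZ library and 33.5% in those of the bleeding library, so free haemoglobin RNA was present in both. The libraries shared 16 cell barcodes, 1 of them a macrophage barcode. Scrublet, a doublet caller, was used only as an alternative; its removal of the top 0.8% of scores per 1000 cells would take out 4 of the 18 PHZ cells, 33 of the 170 haemoglobin-rich cells (19.4%), 12 of the 87 haemoglobin-poor cells (13.8%) and 310 of 2440 erythroid cells of the bleeding library (12.7%). Erythroid cells here are cells outside the rule with 50% or more haemoglobin UMIs, and B cells are cells with 10 or more UMIs over Cd79a, Cd79b and Ms4a1, all 3 detected, and none of the 7 rule genes.

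Cells that met the rule were scarcer in the PHZ library. They were 0.279% of its cells (0.166 to 0.441), against 2.65% in the bleeding library (2.34 to 2.99), a ratio of 0.105 (0.0615 to 0.170). Haemoglobin-poor members alone were 0.523% of cells under 20% haemoglobin in the PHZ library, against 1.28% in the bleeding library, and the ratio was then 0.408 (0.227 to 0.691). The size of the difference thus depended on the denominator and on the haemoglobin-rich cells, which were 5.56% of the PHZ members (0.141 to 27.3) and 66.1% of the bleeding members (60.0 to 71.9).

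Haemoglobin content in the bleeding macrophages formed a narrow low group and a broad high one. Of the 257 cells, 79 had under 5% haemoglobin UMIs and 8 had 5 to 20%, while 56 had 20 to 50%, 82 had 50 to 80% and 32 had 80% or more. The median was 62.1% in the haemoglobin-rich cells and 1.32% in the haemoglobin-poor cells, and B cells of the same library, which make no haemoglobin, had a median of 0.704%. The haemoglobin-poor macrophages thus had a higher median than B cells, and both groups were by definition under 20% haemoglobin. Near the cut, 3 cells at 20 to 25% haemoglobin had 2524 CPM of Slc40a1 and 664 CPM of Spic, and 4 cells at 15 to 20% had 2648 and 1518 CPM (CPM are counts per 1000000 UMIs outside the haemoglobin genes, summed over the cells of a group). At the edge of the macrophage rule, 30 members with 10 to 14 UMIs of the 7 genes had 589 CPM of Slc40a1 and 249.8 CPM of Spic, and 26 of them were haemoglobin-rich. The 19 cells just outside, with 5 to 9 such UMIs, had 167 and 70.9 CPM.

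**Figure D1:**
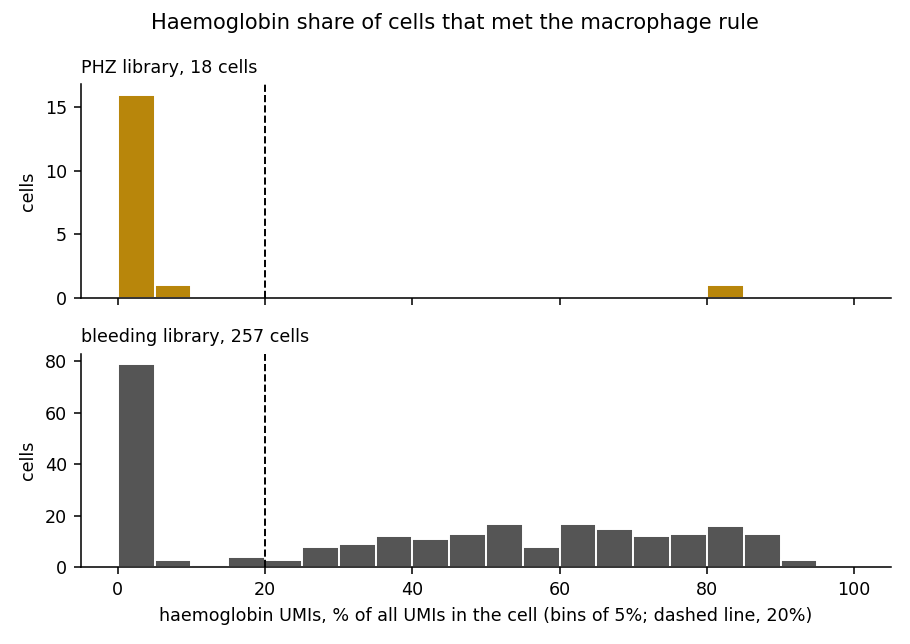
Number of cells that met the macrophage rule (vertical axis) by the percentage of their UMIs from haemoglobin genes (horizontal axis, bins of 5%), PHZ library above and bleeding library below, with a dashed line at the 20% cut. In the PHZ library 1 of 18 cells lies beyond the cut, and in the bleeding library 170 of 257 do, spread broadly up to over 90%.

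The haemoglobin-rich cells had more UMIs in all but not more outside haemoglobin. Their median total was 11646 UMIs, against 5153 in the haemoglobin-poor cells, while the median without haemoglobin was 4055 against 4852 UMIs and the median number of genes 1566.5 against 2290. Mitochondrial UMIs were a median 5.20% of the UMIs outside haemoglobin in haemoglobin-rich cells and 4.75% in haemoglobin-poor cells. The median of summed UMIs over the 7 rule genes was 40.5 in the haemoglobin-rich and 53 in the haemoglobin-poor cells. Erythroid cells of the library had a median of 14092 UMIs, only 1343.5 of them outside haemoglobin, and 410 genes. From the lowest to the highest haemoglobin bin, the median number of UMIs without haemoglobin was 4976, 4826, 6600, 3279.5 and 2026.5, so the cells richest in haemoglobin carried the least other RNA.

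Both classes of bleeding macrophages carried the red pulp markers at similar levels. The 6 markers are Vcam1 (an adhesion molecule that also holds erythroblasts), C1qa (a chain of complement C1q), Spic, Slc40a1 (ferroportin, the iron exporter), Mertk (a receptor for dying cells) and Cd163 (the haptoglobin-haemoglobin receptor). At least 5 of the 6 were detected in 159 of the 257 cells and all 6 in 87. Their genes lie on chromosome 3 at 116109949-116129688 (Vcam1), chromosome 4 at 136895917-136898803 (C1qa), chromosome 10 at 88674772-88685015 (Spic), chromosome 1 at 45908068-45926523 (Slc40a1), chromosome 2 at 128698956-128802894 (Mertk) and chromosome 6 at 124304656-124330527 (Cd163), in GRCm38 with GENCODE M21. Vcam1, C1qa and Mertk belong to the rule, whereas Spic, Slc40a1 and Cd163 do not.

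Slc40a1 had 2247 UMIs in the haemoglobin-rich cells, in 155 of 170 cells, and 1221 in the haemoglobin-poor cells, in 83 of 87. Per cell the lowest, median and highest values were 0, 6 and 68 UMIs in haemoglobin-rich cells and 0, 6 and 89 UMIs in haemoglobin-poor cells, so the groups overlapped entirely. The ratio of CPM was 1.018 (0.949 to 1.09). Spic was at 0.926 (0.827 to 1.04) and Cd163 at 1.11 (0.909 to 1.36), and both intervals included 1. Among the markers that were part of the rule, Vcam1 was at 0.983 (0.930 to 1.04), Mertk at 0.887 (0.817 to 0.963) and C1qa at 0.797 (0.742 to 0.857). None of the 6 differed by 2-fold, and their median log2 ratio was -0.07, against -0.30 over all 8569 genes compared (20 or more UMIs in both groups together). That shift of all genes applies to every ratio of haemoglobin-rich over haemoglobin-poor cells given here.

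Detection at equal depth was similar. With each cell thinned to 1000 UMIs outside haemoglobin, which left out 16 haemoglobin-rich cells, Slc40a1 was found in 74.0% of haemoglobin-rich and 75.9% of haemoglobin-poor cells (91.2% and 95.4% before thinning). Thinned B cells, with a median of 5970 UMIs before thinning, showed it in 0.0902%. For Spic the thinned shares were 40.3% and 49.4% (75.9% in both before thinning), against 0.240% of B cells, and for Cd163 they were 26.6% and 21.8% (45.3% and 47.1% before thinning), against 0.0601%. These markers were thus far above their level in B cells. The B cells were chosen to lack the rule genes, so their level can understate free macrophage RNA, whose share was not tested.

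Levels of some markers did vary along the haemoglobin gradient. Over the 5 bins from under 5% to 80% or more haemoglobin, Slc40a1 stood at 1848, 2887, 2183, 1832 and 1233 CPM and Spic at 707, 1563, 820, 660 and 378 CPM. Mertk stood at 1416, 2261, 1715, 1007 and 199.9 CPM, while C1qa was 2049, 2059, 1528, 1674 and 2155 CPM. In CPM the top bin, with the fewest UMIs outside haemoglobin, was the lowest for Slc40a1, Spic and Mertk but not for C1qa. The denominator of CPM includes erythroid RNA. Scaled instead to the UMIs of genes low in erythroid cells, a set defined below, Slc40a1 stood at 13732, 16266, 17531, 20222 and 19553. Spic stood at 5253, 8806.5, 6586, 7288 and 5989, so the lowest bin was then the lowest for both. Mertk, at 10518, 12743, 13768, 11119 and 3171, was still lowest in the top bin. In that bin 32 cells had a median of 18.5 UMIs of the 7 rule genes, against 52 in the 79 cells of the lowest bin.

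The bleeding members were set against monocytes, the class most like them, taken as 163 cells outside the rule with 6 or more UMIs and 3 or more genes of Csf1r, Ly6c2, Ccr2, Treml4, Ace and Ms4a6c. Of 10700 genes compared, 1667 (15.6%) were 2-fold or more higher in the members and 1740 (16.3%) were 2-fold or more lower. Genes of both rules are described only. Slc40a1 had 3468 UMIs in the members and 16 in the monocytes, Spic 1316 and 12, and Cd163 451 and 13, ratios of 297 (183 to 520), 150 (85.7 to 292) and 47.5 (27.5 to 90.0).

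Genes of the erythroblast island were mostly higher in the members. Of 12 such genes compared, Vcam1 and Cd163 among them, 10 were 2-fold or more higher and 0 lower. Igf1, a growth factor for erythroid cells, had 1068 UMIs in the members and 1 in monocytes. Kitl, the ligand of the receptor Kit, had 136 in the members and 0 in monocytes, so it was higher by at least 62.1-fold if the monocytes are given the floor of 3 counts. Epb41l3 was at 57.7 (32.7 to 112). Of the 21 haem and iron genes compared, 15 were 2-fold or more higher and 1 lower, with Hmox1, haem oxygenase 1, at 57.2 (43.9 to 75.9). Cd5l, a secreted macrophage protein, had 760 UMIs in the members and 1 in monocytes, and the complement gene C6 had 448 and 0. As pooled, MHC class II genes were 2-fold or more lower in the members in 7 of 7, with Cd74 at 0.313 (0.299 to 0.327). The median cell did not show this for Cd74, with 3 UMIs in the members and 3 in monocytes. Median UMIs outside haemoglobin were 4339 and 12557, so for its depth the median was higher in the members. The highest cell had 161 UMIs of Cd74 in the members and 464 in monocytes. S100a8 and S100a9, neutrophil genes, were at 0.0491 and 0.0403.

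Erythroid transcripts set the haemoglobin-rich macrophages apart, far beyond haemoglobin itself. Of the 8569 genes compared, 722 (8.43%) were 2-fold or more higher in haemoglobin-rich cells and 887 (10.4%) were 2-fold or more lower, so 44.9% of these differences were upward; with median-of-ratios size factors 73.2% were, and with each cell scaled alike 34.8%. Of a list of 33 non-globin erythroid genes, 30 were 2-fold or more higher and 0 lower, with a median log2 ratio of 3.31. The summed list had 58010 UMIs in haemoglobin-rich cells and 2474 in haemoglobin-poor cells. Since haemoglobin drew the line between the groups, these counts describe the contrast and are no test of it.

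Alas2, the erythroid form of the first enzyme of haem synthesis, had 4745 UMIs in haemoglobin-rich cells, in 169 of 170, and 50 in haemoglobin-poor cells, in 16 of 87. Per cell the lowest, median and highest were 0, 21 and 132 UMIs in haemoglobin-rich cells and 0, 0 and 12 in haemoglobin-poor cells. The ratio was 52.5 (39.7 to 70.8). Erythroid cells of the same library had 7991 CPM, above the 4163 CPM of haemoglobin-rich macrophages, and B cells 16.0 CPM. At equal depth Alas2 was found in 91.6% of haemoglobin-rich cells, 8.05% of haemoglobin-poor cells and 1.38% of B cells (99.4%, 18.4% and 9.23% before thinning).

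The promoter of Alas2 (RefSeq, GRCm38.p6, chrX:150547167-150547466, plus strand, 250 bases before to 50 after the start) is printed because this gene ranked first by the lower bound of its interval (Apol11b had the higher ratio, 67.2), beside that of Spic (chr10:88682974-88683273, minus strand), a marker that differed little. Capitals mark matches, on either strand, to AGATAA, a form of the GATA motif read by the erythroid factor GATA1, or to GAGGAA, the core of many sites of PU.1 and other ETS factors, to which the Spic protein belongs. The motifs do not overlap in these windows. Alas2 has 1 match to AGATAA, on the reverse strand as TTATCT, and 1 to GAGGAA, and the Spic window has 0 of each. The Spic window lies inside the GENCODE span of the gene (88674772-88685015), so sequence before the outermost GENCODE start was not searched. Of 32851 RefSeq promoters of this length, 11.2% hold AGATAA and 28.3% hold GAGGAA, so a match is a description of the sequence and not a site.
Alas2: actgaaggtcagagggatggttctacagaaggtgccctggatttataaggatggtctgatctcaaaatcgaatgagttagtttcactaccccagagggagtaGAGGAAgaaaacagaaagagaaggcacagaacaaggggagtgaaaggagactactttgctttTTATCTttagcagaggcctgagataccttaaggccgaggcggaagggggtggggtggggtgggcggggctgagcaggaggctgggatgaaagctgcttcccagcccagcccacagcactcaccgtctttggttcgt
Spic: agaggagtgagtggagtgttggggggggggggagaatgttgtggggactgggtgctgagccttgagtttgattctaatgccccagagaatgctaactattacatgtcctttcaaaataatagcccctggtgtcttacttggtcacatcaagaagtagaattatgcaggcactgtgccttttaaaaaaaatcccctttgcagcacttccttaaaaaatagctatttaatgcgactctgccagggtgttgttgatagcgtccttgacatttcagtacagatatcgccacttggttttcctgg

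The other genes with the largest upward differences were also high in erythroid cells. Tent5c, a poly(A) polymerase gene, had 5655 UMIs in haemoglobin-rich cells and 63 in haemoglobin-poor cells, a ratio of 49.6 (38.7 to 64.7), with a median of 22 and 0 UMIs per cell. Bpgm, whose product makes the compound that loosens oxygen from haemoglobin, had 5061 and 79 UMIs, a ratio of 35.4 (28.4 to 44.8). The ubiquitin pathway genes Ube2l6, Mkrn1, Ube2c and Ube2o were at 29.6, 25.98, 33.03 and 23.5, and Slc4a1, the red cell anion exchanger, at 22.8. Apol11b was at 67.2, and the interferon-inducible genes Rsad2 and Isg20 at 36.8 and 28.4. Erythroid cells had between 1606 and 15815 CPM of each of these, and B cells at most 67.2 CPM.

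Genes high in erythroid cells made up most of the upward differences. Genes with at least 4-fold higher CPM in PHZ erythroid cells than in B cells were 816 of the 8569 (9.52%), but 558 of the 722 higher genes (77.3%) and 18 of the 887 lower ones (2.03%). From the lowest to the highest haemoglobin bin, Tent5c stood at 29.5, 846, 2512, 6950 and 11651 CPM. The proliferation gene Mki67 stood at 66.0, 91.9, 654, 1269 and 133 CPM, so it peaked at 50 to 80% haemoglobin and was low in the cells richest in it. Proliferation genes as a list were 2-fold or more higher in 7 of 14 and lower in 1, with a median log2 ratio of 1.20, and Mki67 was at 984 CPM in erythroid cells. With the haemoglobin cut at 50% the proliferation median was -0.23.

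The erythroid RNA of the haemoglobin-rich macrophages was also set against its globin content. Globin, the denominator, also drew the groups and bins, so these ratios are a description. Per 1000 globin UMIs, haemoglobin-rich macrophages had 34.2 UMIs of the non-globin erythroid list (34.0 to 34.5). Erythroid cells had 22.03 as a whole, 33.6 at 50 to 80% haemoglobin and 18.2 at 80% or more. Haemoglobin-dominated barcodes with under 300 genes had 13.5, and background barcodes 36.5. With far fewer globin UMIs, haemoglobin-poor macrophages had 161 and B cells 123. By this sum the haemoglobin-rich macrophages stood near the erythroid cells of 50 to 80% haemoglobin and near the background. They stood above erythroid cells of 80% or more and barcodes with under 300 genes. By haemoglobin bin, members at 20 to 50% had 45.2, at 50 to 80% 37.8 and at 80% or more 20.1.

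Most single genes followed this order. Of the 33 list genes, 31 were higher per globin UMI in haemoglobin-rich macrophages than in erythroid cells as a whole (19 by 2-fold or more), 12 were higher than in erythroid cells of 50 to 80% haemoglobin (1 by 2-fold or more), and 8 were higher than in the background (0 by 2-fold or more). Lower by 2-fold or more were 0, 1 and 8 genes, in the same order of groups. The median ratios were 2.10, 0.876 and 0.723. Alas2, Slc25a37 (the iron importer of erythroid mitochondria), Fech (the last enzyme of haem synthesis), Bnip3l (which clears mitochondria), Ube2l6 and Mkrn1 were higher in the macrophages than in erythroid cells as a whole, both erythroid haemoglobin bins and the background. For Slc25a37 the ratio to the background was 1.05 (0.999 to 1.11), an interval that included 1. Tent5c, outside the list, stood out most. It had 3.34 UMIs per 1000 globin UMIs in haemoglobin-rich macrophages, against 1.24 in erythroid cells of 50 to 80% haemoglobin, 0.872 in those of 80% or more and 1.13 in the background.

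Some transcripts of earlier or dividing erythroid cells were lower per globin UMI than in erythroid cells of 50 to 80% haemoglobin, but higher than in erythroid cells as a whole. Others were not lower. Against erythroid cells of 50 to 80% haemoglobin, the list gene Car1 was at 3.67 (2.56 to 5.25). Gata1 was at 0.862 (0.659 to 1.11) and Epor at 0.910 (0.692 to 1.18), both with intervals that included 1. Against the background all of these were lower, with Car1 at 0.0890 (0.0669 to 0.116), Gata1 at 0.333 and Epor at 0.448. Mki67 had 0.573 UMIs per 1000 globin UMIs in haemoglobin-rich macrophages, against 0.774 in erythroid cells of 50 to 80% haemoglobin and 0.203 in all erythroid cells. Tfrc, the transferrin receptor, had 0.400, against 0.544 and 0.148, and Klf1, an erythroid transcription factor, 0.0767, against 0.112 and 0.0295. Kit had 0 UMIs in the haemoglobin-rich macrophages, which allows up to 0.00218 per 1000 globin UMIs. That limit is above the 0.00107 of erythroid cells of 50 to 80% haemoglobin, so the 0 shows no difference. The globin genes themselves were in similar proportions, with Hbb-bs at 45.1% of globin UMIs in haemoglobin-rich macrophages and 47.5% in erythroid cells, Hbb-bt at 13.9% and 15.5%, Hba-a1 at 22.8% and 21.0% and Hba-a2 at 18.2% and 16.0%. Hba-a1 and Hba-a2 are near-identical copies, so the split between them is uncertain. Embryonic globins had 0 UMIs in the macrophages. Free RNA, a red cell captured with a macrophage, and red cell RNA inside a macrophage cannot be told apart by these counts.

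**Figure D2:**
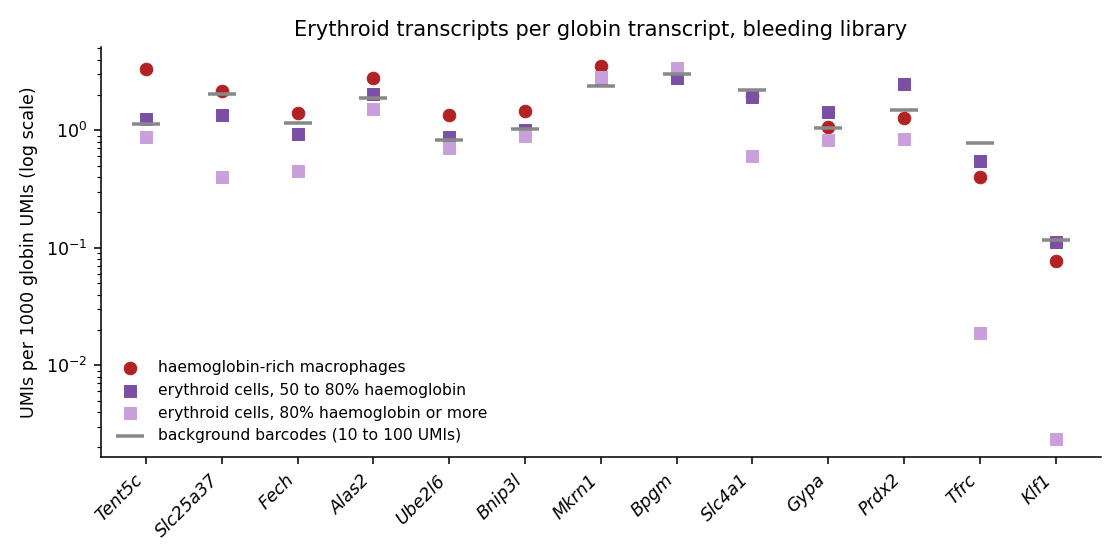
UMIs per 1000 globin UMIs (vertical, log scale) for 13 erythroid genes in the bleeding library, in haemoglobin-rich macrophages (red circles), erythroid cells of 50 to 80% and of 80% or more haemoglobin (dark and light squares) and background barcodes of 10 to 100 UMIs (grey bars). Tent5c, at 3.34, lies above the other groups, while Tfrc and Klf1 lie below erythroid cells of 50 to 80% haemoglobin.

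Haem and iron genes gave a mixed picture. Of 21 compared, 4 were 2-fold or more higher in haemoglobin-rich cells and 2 lower, with a median log2 ratio of 0.15, which was -0.15 without cells that carried B cell, T cell or neutrophil markers. Hmox1 (chromosome 8, 75093621-75100589), which opens the haem ring and releases its iron, had 1611 UMIs in haemoglobin-rich cells, in 150 of 170, and 726 in haemoglobin-poor cells, in 76 of 87. Per cell the lowest, median and highest values were 0, 7 and 71 UMIs in haemoglobin-rich cells and 0, 4 and 66 in haemoglobin-poor cells, with wide overlap. It was at 1414 against 1152 CPM, a ratio of 1.23 (1.12 to 1.34), and erythroid cells had 12.2 CPM of it. With haemoglobin UMIs kept in the denominator its log2 ratio was -0.98, where the median of all genes was -1.58. Over the 5 haemoglobin bins Hmox1 stood at 1191, 735, 1177, 1650 and 1844 CPM. In CPM only the bins of 50% or more were thus above the lowest bin. Scaled instead to the UMIs of genes low in erythroid cells, Hmox1 stood at 8853, 4144, 9448, 18208 and 29241. Hmox1 was then slightly above the lowest bin at 20 to 50% haemoglobin as well. At equal depth it was found in 67.5% of haemoglobin-rich and 63.2% of haemoglobin-poor cells (88.2% and 87.4% before thinning), and in 0 of 3327 thinned B cells, which allows a share of up to 0.0902% at a limit of 3 counts.

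The genes of this list that were 2-fold or more higher were all abundant in erythroid cells too. Blvrb, biliverdin reductase B, was at 2.53 (2.22 to 2.89) with 3048 CPM in erythroid cells, Slc48a1, which moves haem out of the phagolysosome, at 2.52 (1.996 to 3.22) with 711 CPM, Ncoa4, which delivers ferritin for breakdown, at 4.79 (3.92 to 5.90) with 1156 CPM, and Tfrc at 3.99 (3.21 to 5.002) with 719 CPM. The ferritin genes Ftl1 and Fth1 were at 1.69 (1.62 to 1.77) and 1.24 (1.19 to 1.29), with 13839 and 6315 CPM in erythroid cells; both have processed copies in the genome that can share reads. How much of these differences came with erythroid RNA was not tested. Among genes low in erythroid cells, Slc11a1, the phagosomal iron transporter, was at 0.730 (0.590 to 0.905) and Blvra, biliverdin reductase A, at 1.19 (0.870 to 1.64).

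**Figure D3:**
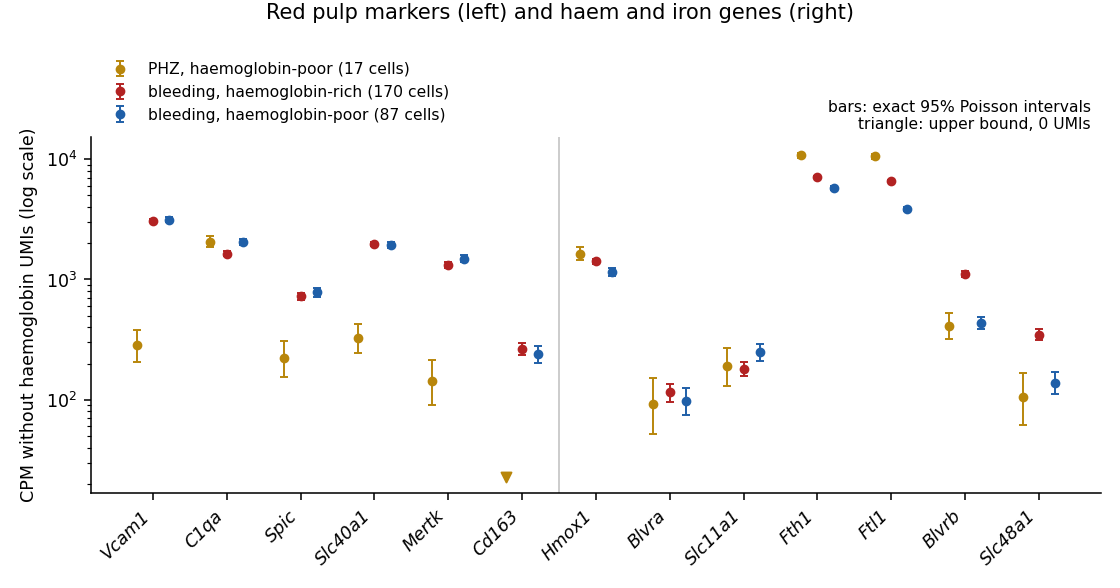
CPM without haemoglobin UMIs (vertical, log scale) of 6 red pulp markers and 7 haem and iron genes in PHZ haemoglobin-poor cells (17, gold), bleeding haemoglobin-rich cells (170, red) and bleeding haemoglobin-poor cells (87, blue), with exact 95% Poisson intervals and a triangle at the upper bound where no UMI was seen. Markers of both bleeding groups lie close together, and Blvrb and Slc48a1 are higher in the haemoglobin-rich cells; in PHZ cells Vcam1, Spic, Slc40a1 and Mertk are lower and C1qa is at the same level.

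To look past erythroid RNA, the comparison was read in genes whose CPM in erythroid cells was under 10% of that in the members, a choice made after seeing the data. Of 760 such genes, 17 (2.24%) were 2-fold or more higher in haemoglobin-rich cells and 83 (10.9%) lower, with a median log2 ratio of -0.27. All genes of this kind together were a median 10.6% of the UMIs outside haemoglobin in haemoglobin-rich cells and 14.2% in haemoglobin-poor cells. Apoc1, an apolipoprotein gene, had the largest upward difference by its interval, with 113 UMIs in 41 haemoglobin-rich cells and 25 UMIs in 17 haemoglobin-poor cells, a ratio of 2.50 (1.61 to 4.02). Cd5l followed at 1.59 (1.35 to 1.88), with 564 UMIs against 196, but its log2 ratio was -0.029 with the haemoglobin cut at 50% and -0.61 with haemoglobin in the denominator. Nr1h3, the sterol sensor LXR alpha, was at 1.45 (1.15 to 1.83). In the other direction Klra2 was at 0.377 (0.276 to 0.513), Scarb1, a lipoprotein receptor gene, at 0.442 (0.323 to 0.604) and Nfia at 0.512 (0.431 to 0.608).

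Other macrophage lists differed little between the classes. Of 29 lysosome and phagosome genes, 0 were 2-fold or more higher and 1 lower, with a median log2 ratio of -0.11; Ctsb, the protease cathepsin B, was at 1.23 (1.15 to 1.30) and Psap, a lysosomal lipid-handling protein, at 0.868 (0.812 to 0.927). The 1 lower gene, Lyz2, had 1073 of its 1205 haemoglobin-poor UMIs in 1 cell. Of the 12 erythroblast island genes, 1 was higher, Add1, at 2.69 (2.07 to 3.54) with 315 CPM in erythroid cells, and 0 were lower. Igf1 was at 0.902 (0.796 to 1.023), Csf1r, the receptor for macrophage growth factor, at 0.781 (0.710 to 0.860) and Kitl at 1.05 (0.727 to 1.52). Of 15 cholesterol and lipid genes 0 were higher and 2 lower, and of 16 macrophage transcription factors 0 were higher and 2 lower.

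Among complement genes 0 of 10 were 2-fold or more higher and 4 lower, with a median log2 ratio of -0.55. C4b, Cfb and Itgam were among the lower 4, and of the haemoglobin-poor cells 2 held all UMIs of C4b and of Cfb, and 3 held 86.5% of those of Itgam. Of 6 Fc receptor genes 0 were higher and 1 lower, with Fcer1g at 0.738 (0.679 to 0.801). Of 13 efferocytosis and scavenging genes, 1 was higher, Cd36, at 4.66 (3.14 to 7.16) with 382 CPM in erythroid cells, and 3 were lower. Marco, a receptor of marginal zone macrophages and 1 of these 3, had 27 and 176 UMIs, with 3 cells holding all of the haemoglobin-poor UMIs.

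MHC class II genes had ratios under 1 in 7 of 7, of which 3 were 2-fold or more lower, with a median log2 ratio of -0.97. H2-Eb1 had 220 UMIs in haemoglobin-rich cells and 315 in haemoglobin-poor cells, a ratio of 0.386 (0.324 to 0.460), and Cd74 was at 0.509 (0.470 to 0.551). Markers of B cells, which express these genes strongly, had 319 UMIs over 4 genes in haemoglobin-rich cells and 283 in haemoglobin-poor cells, a ratio of 0.623 on the CPM scale; none of the 4 was at 0. Without cells that carried 5 or more UMIs of B cell, T cell or neutrophil markers, the median log2 ratio was -1.29. Other genes with the largest downward differences were Eprs at 0.259, Samsn1, Elk3, Itpr1, Cytip, Pycard, Nfat5, Mef2c, Coro1a, Cd52 and Inpp4b, the last at 0.424 (0.357 to 0.502). Of these, Cd52, Mef2c, Inpp4b and Coro1a had 1768, 1670, 1127 and 826 CPM in B cells, and their part in the result was not tested.

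The integrated stress response, type I interferon and antioxidant lists each held some genes that were much higher in haemoglobin-rich cells, unlike the heat shock list. Of 8 integrated stress response genes 4 were 2-fold or more higher and 0 lower, with a median log2 ratio of 0.98. Ppp1r15a, which ends the response, was at 11.0 (7.23 to 17.5), Slc7a5, an amino acid transporter, at 17.5 (5.81 to 86.4) and Eif2ak1, the haem-regulated kinase, at 4.37 (3.16 to 6.18), and erythroid cells had 719, 102 and 608 CPM of them. Of 14 type I interferon genes 6 were higher and 0 lower; Isg15 was at 25.3 (15.7 to 43.6) and had 3304 CPM in erythroid cells. Of 20 antioxidant genes 6 were higher and 3 lower. Gclm and Gclc, the subunits of the enzyme that starts glutathione synthesis, were at 12.1 (9.33 to 16.1) and 2.81 (1.95 to 4.16), Gpx1 at 5.82 (5.30 to 6.42) and catalase (Cat) at 6.16 (5.06 to 7.56), with 2658, 105, 9957 and 1098 CPM in erythroid cells. Of 8 heat shock genes 0 were higher and 3 lower, with Hspa8 at 0.597 (0.510 to 0.700) and 175 CPM in erythroid cells.

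**Figure D4:**
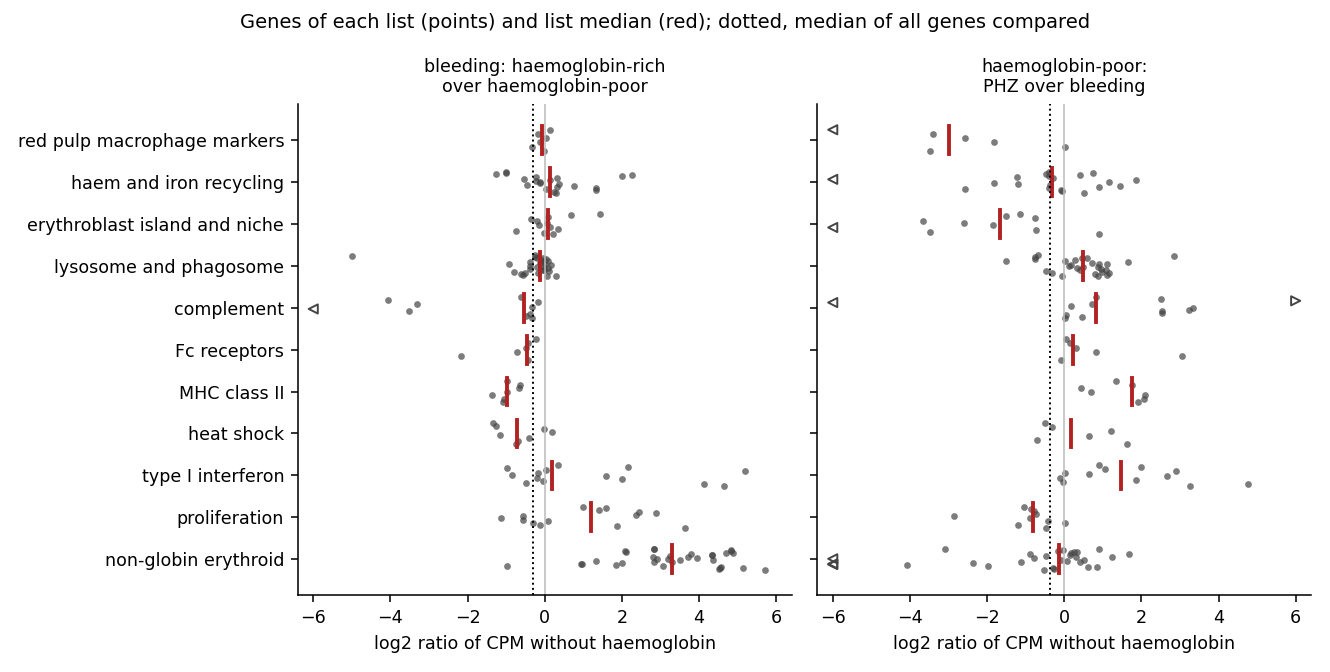
Log2 ratio of CPM without haemoglobin (horizontal) for each gene (points) of 11 gene lists (rows), haemoglobin-rich over haemoglobin-poor bleeding macrophages on the left and PHZ over bleeding haemoglobin-poor cells on the right; red bars are list medians, dotted lines the medians of all genes compared, and open triangles genes beyond the axis or at 0 in a group. On the left the non-globin erythroid list lies far to the right at a median of 3.31 while the marker list lies at -0.07; on the right the marker and erythroblast island lists lie to the left, at -2.98 and -1.67.

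Among the 18 PHZ cells that met the rule, most of the larger ones lacked the red pulp markers Slc40a1 and Vcam1. All 18 are therefore called PHZ cells here. None had more than 4 of the 6 markers, and 5 cells had 4. Cd163 had 0 UMIs in all 18, against 451 UMIs in the bleeding members, lower by at least 13.97-fold with the floor of 3 counts over the PHZ cells. By total UMIs the cells lay in 2 ranges, 11 cells with 9711 to 23744 UMIs and 7 cells with 1391 to 2933. Slc40a1 was found in 7 of the 7 smaller cells and in 3 of the 11 larger ones, the haemoglobin-rich cell among them, and Vcam1 in 6 of the 7 and 3 of the 11. The other markers did not split this way. Of the 10 larger haemoglobin-poor cells, 8 had C1qa, 6 had Spic and 6 had Mertk, against 6, 5 and 1 of the 7 smaller ones.

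Levels of Slc40a1 and Spic in the haemoglobin-poor PHZ cells also differed by size, in a split at 5000 UMIs that was chosen after seeing the data. In the 7 smaller PHZ cells Slc40a1 stood at 2243 CPM (1544 to 3150) and Spic at 1088 CPM (622 to 1766), against 2309 CPM (2010 to 2641) and 1106 CPM (902 to 1343) in the 41 bleeding cells under 5000 UMIs. These 2 markers were thus at about the bleeding level in cells of like size, while Vcam1 was at 2447 CPM (1714 to 3388) against 5085 CPM (4635 to 5567), and Cd163 had 0 UMIs, which allows up to 250.8 CPM, against 379 CPM (264 to 528). In the 10 larger PHZ cells Slc40a1 and Spic were each at 136 CPM (82.9 to 210), against 1874 CPM (1760 to 1993) and 725 CPM (655 to 801) in the 46 larger bleeding cells.

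The 7 smaller PHZ cells had more haem oxygenase and ferritin RNA, for their UMIs, than bleeding cells of like size. Hmox1 stood at 13187 CPM (11397 to 15179), with 194 UMIs in 7 of 7 cells, against 2667 CPM (2344 to 3022) in bleeding cells under 5000 UMIs. Fth1 stood at 49011 CPM (45498 to 52723) against 10571 CPM (9918 to 11256), and Ftl1 at 35756 CPM (32765 to 38946) against 8880 CPM (8282 to 9509). In the 10 larger PHZ cells Hmox1 was at 482 CPM (376 to 608), against 892 CPM (814 to 976) in the larger bleeding cells. The smaller cells had only 14711 UMIs outside haemoglobin in all, 9.08% of those of the haemoglobin-poor PHZ cells, so values pooled over the 17 cells are set mostly by the larger ones.

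Some of the larger cells carried transcripts that the bleeding members rarely had. Saa3, an acute phase gene, had 449, 653 and 466 UMIs in 3 cells, which together with 3 others held all of its 1587 UMIs. Fn1, fibronectin, had 303, 266 and 24 UMIs in the same 3 cells and 293 in another. Prg4, a lubricating glycoprotein, had 116, 87 and 9 UMIs in these 3 and 0 elsewhere, and Cxcl13, a chemokine for B cells, had 421 UMIs in 1 of them. Ccr2, a monocyte receptor, was found in 6 of the 18 cells, with 21 UMIs at most. These genes were named after their values were seen.

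**Figure D5:**
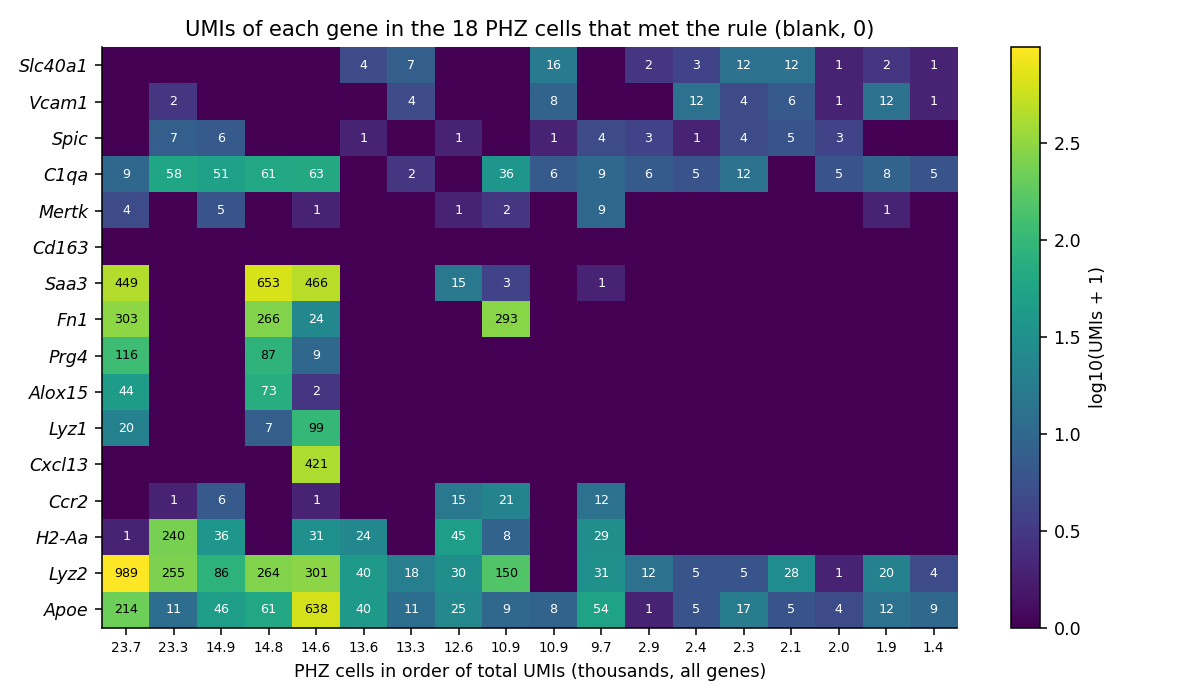
UMIs of 16 genes (rows; numbers and colour, log10 of UMIs plus 1) in each of the 18 PHZ cells (columns, in order of total UMIs, given in units of 1000). Saa3, Fn1, Prg4 and Alox15 sit in a few of the largest cells, Slc40a1 and Vcam1 mostly in the 7 smallest, and Cd163 is 0 throughout.

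Between the libraries the haemoglobin-poor cells were compared, 17 PHZ cells against 87 bleeding cells, because haemoglobin-rich cells made up very different shares. Of 6355 genes compared, 452 (7.11%) were 2-fold or more higher in the PHZ cells and 1764 (27.8%) lower, 34.9% in either direction, with a median log2 ratio of -0.36. Of the 6 markers 0 were higher and 5 lower. Slc40a1 had 53 UMIs in the PHZ cells, in 9 of 17, and 1221 in the bleeding cells, in 83 of 87. Per cell the lowest, median and highest were 0, 1 and 16 UMIs in the PHZ cells and 0, 6 and 89 UMIs in the bleeding cells, and the ratio was 0.169 (0.126 to 0.222). Thinned to equal depth it was found in 35.3% of the PHZ cells and 75.9% of the bleeding cells (52.9% and 95.4% before thinning), whose median totals were 10914 and 5153 UMIs. Vcam1 was at 0.0903 (0.0659 to 0.121), Mertk at 0.0954 (0.0602 to 0.144) and Spic at 0.285 (0.197 to 0.399), while C1qa was at 1.01 (0.889 to 1.13). For Slc40a1 and Spic this pooled difference lay in the larger PHZ cells, as given above.

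Haem oxygenase and ferritin were higher in the PHZ cells as pooled, with 194 of the 265 Hmox1 UMIs in the 7 smaller cells. Hmox1 had 265 UMIs in the PHZ cells, in 16 of 17, and 726 in the bleeding cells, with a median of 9 and 4 UMIs per cell, and a ratio of 1.42 (1.23 to 1.64). Thinned, it was found in 52.9% of the PHZ cells and 63.2% of the bleeding cells. Ferritin heavy chain (Fth1) was at 1.87 (1.77 to 1.98) and light chain (Ftl1) at 2.73 (2.57 to 2.91), and each of the 17 PHZ cells had at least 26 UMIs of both. The list had 20 genes compared, 3 of them 2-fold or more higher and 5 lower, with a median log2 ratio of -0.32. The haemoglobin-poor PHZ cells had a median of 1.09% haemoglobin UMIs, against 1.32% in the bleeding cells.

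Genes of the erythroblast island were lower in the PHZ cells, 7 of 10 by 2-fold or more, Vcam1 and Cd163 among them, and 0 higher, with a median log2 ratio of -1.67. Igf1 had 29 UMIs in the PHZ cells and 406 in the bleeding cells, a ratio of 0.278 (0.184 to 0.405), and Epb41l3 was at 0.0794 (0.0214 to 0.206). Pparg, a lipid-sensing transcription factor, was at 0.171 (0.100 to 0.273) and Il18 at 0.331 (0.189 to 0.543). MHC class II genes had ratios over 1 in 7 of 7, with 5 of them 2-fold or more higher, and Cd74 at 2.55 (2.34 to 2.79). In that gene 3 cells held 67.4% of the PHZ UMIs, and B cell markers had 1 UMI in the PHZ cells against 283 in the bleeding cells. Of 29 lysosome genes 6 were higher and 1 lower, of 13 complement genes 6 and 1, and of 10 inflammatory genes 5 and 1. Apoe was at 4.87 (4.47 to 5.32) and the granule gene Lyz2 at 7.17 (6.68 to 7.70), but 3 cells held 78.8% and 70.0% of their PHZ UMIs.

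Over all members, more genes were 2-fold or more lower in the PHZ cells than higher. Of 8818 genes compared, 864 (9.80%) were 2-fold or more higher and 2719 (30.8%) lower. Dlg2, a scaffold protein gene, had 0 UMIs in the PHZ cells and 1610 in 113 bleeding cells, lower by at least 49.9-fold with that floor. Dgki, Dlc1, Slc1a3 (a glutamate transporter), Hs3st2 and Sgip1 also had 0, against 1278, 1077, 576, 528 and 456 UMIs. Itgad, the integrin chain CD11d of red pulp macrophages, had 3 UMIs in the PHZ cells and 1496 in 201 of the 257 bleeding cells, a ratio of 0.0216 (0.00444 to 0.0632), and 0.0205 in haemoglobin-poor cells alone. The erythroid genes Alas2, Tent5c, Slc25a37 and Sptb were lower as well. In haemoglobin-poor cells alone Alas2 was at 0.700 (0.303 to 1.44) and Tent5c at 1.11 (0.619 to 1.901), both with intervals that included 1, while Slc25a37 was at 0.545 (0.287 to 0.957) and Sptb had 0 UMIs in the PHZ cells and 27 in the bleeding cells. Ebf1, a B cell factor, had 0 UMIs in the PHZ cells and 624 in 44 bleeding cells.

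Genes higher in the PHZ cells often had most of their UMIs in a few of them. Of 145 genes at least 50 UMIs deep and past 1.5-fold by the near bound of the interval, 97 had 50% or more of their PHZ UMIs in 3 cells, and 48 were left. Of 677 lower genes, 18 were set aside in this way and 659 were left. The PHZ cells held 164538 UMIs outside haemoglobin in 18 cells, the bleeding members 1769924 in 257. The count minimum and the 3-cell limit were therefore harder to pass for higher genes, and the 2 directions cannot be compared by number. Lgals3, galectin 3, led these with 136 UMIs in 18 of 18 PHZ cells, against 221 UMIs in 99 of 257 bleeding cells, a ratio of 6.62 (5.31 to 8.23), and 4.40 (3.39 to 5.71) in haemoglobin-poor cells alone. The glycolytic genes Eno1 and Aldoa were at 4.97 (3.54 to 6.90) and 4.29 (3.18 to 5.73), the chaperone gene Hspa8 at 4.10 (3.53 to 4.76) and Fabp5, a fatty acid carrier gene, at 4.47 (3.34 to 5.92). Sh3bgrl3, Adgre5, Arpc1b, Bri3, Nme2 and Cst3 lay between 2.76 and 3.67, and in haemoglobin-poor cells alone all the genes named here were between 1.95 and 4.40.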

How the data were processed

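Droplet-based single-cell RNA counts of mouse spleen were used, 1 library for chronic PHZ and 1 for chronic bleeding. The authors deposited counts, whole UMI numbers per gene and barcode, with empty droplets included and no normalisation. Reads were counted with Cell Ranger 7.0.0 on build mm10, per the submitters' processing notes, while the file headers name version 4 of the software; the handling of intronic reads is not given in the sources used here. Of 32285 genes, 32158 matched GENCODE M21. Cells and macrophages were chosen as stated above. Counts of a group's cells were added up and scaled to CPM without the 10 haemoglobin genes. Ratios carry exact conditional 95% intervals, shares Clopper-Pearson intervals and rates Poisson intervals; those cover counting error only, and cells were not treated as replicates. A gene was compared with 20 or more UMIs over both groups. Genes at 0 in a group were set against a floor of 3 counts over that group. The calculation was tested on simulated data.

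The members and the 29 gene lists were chosen with earlier results of these data known. Named genes had at least 50 UMIs in the higher group, no 3 cells holding 50% or more of them, and an interval bound beyond 1.5-fold, and the first 12 per direction by that bound were named, without immunoglobulin, receptor, mitochondrial, ribosomal and sex-linked genes. From lists, the 4 members with most UMIs and those with a bound beyond 2-fold could be named, and further names were chosen after their values were seen; some genes that met the rule are not reported here. Alternatives changed the scaling, count minimum, doublets, cell filter, rule, haemoglobin cut and single high cells; the settings without shared barcodes, with genes low in erythroid cells and with cells split by size were added after seeing the data. Python 3.11.15, numpy 2.4.6, scipy 1.17.1, pandas 2.3.3, scanpy 1.11.5 and matplotlib 3.10.9 were used.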

Additional observations from a re-analysis of the deposited data

How the results depend on the processing

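The scarcity of members in the PHZ library and the excess of erythroid genes in haemoglobin-rich macrophages kept their direction under every alternative run, while counts of genes moved with the scaling and the low count filter. For haemoglobin-rich over haemoglobin-poor cells, 722 genes were higher and 887 lower; with haemoglobin in the denominator 274 and 6892, with genes of 1 or more UMIs 2515 and 2997. Lower genes were 1589 with each cell scaled alike, 377 with median-of-ratios factors, 375 at 50 or more UMIs, 337 without the 3 highest cells of each gene and 2446 with the cut at 50%. Upward differences were 44.9% of these, 3.82% with haemoglobin in the denominator, 57.5% at 50 or more UMIs, 72.5% without the 3 highest cells and 18.7% with the cut at 50%. The median of all genes was -0.30, -1.58 with haemoglobin in the denominator and 0.04 with median-of-ratios factors.

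For PHZ over bleeding, 864 were higher and 2719 lower; with haemoglobin in the denominator 2950 and 1459 (66.9% upward against 24.1%), with genes of 1 or more UMIs 1976 and 6867, at 50 or more UMIs 499 and 1736, without the 3 highest cells 85 and 5654 (1.48% upward) and in haemoglobin-poor cells 452 and 1764. Higher genes were 1337 with each cell scaled alike. The share ratio of 0.105 was 0.408 among cells under 20% haemoglobin. The erythroid list stood at 34.2 per 1000 globin UMIs, 29.3 without Scrublet doublets, 32.9 without cells of B, T or neutrophil markers and 12.003 with late genes only.

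Several log2 medians and genes changed sign. In haemoglobin-rich over haemoglobin-poor cells, the haem and iron list was -1.13 with haemoglobin in the denominator, -0.20 with cells scaled alike and -0.15 without cells of B, T or neutrophil markers; the lysosome list 0.23 with median-of-ratios factors and 0.33 with the erythroid profile subtracted; proliferation -0.23 with the cut at 50%; Cd5l -0.61 and Hmox1 -0.98 with haemoglobin in the denominator, and Cd5l -0.029 with the cut at 50%. In PHZ over bleeding, haem and iron was 0.62 with haemoglobin in the denominator, lysosome -0.34 and complement -0.82 without the 3 highest cells, complement -0.41 and proliferation 0.13 without Scrublet doublets, and Tent5c 0.15 in haemoglobin-poor cells. The cause was not tested. Without the barcodes shared by the libraries the erythroid list median was 3.30, against 3.31 with them. No paired analysis was possible because each treatment had 1 library. With 18 PHZ cells, small differences were not detectable there.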
